A study of Homo sapiens with 8 samples.

Results

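*ZFAS1*, the host transcript of the snoRNAs *SNORD12*, *SNORD12B* and *SNORD12C*, was the only snoRNA host gene of 10 sought that the array measured with a probe set of its own. The 10 genes were *SNHG1*, *SNHG5*, *SNHG6*, *SNHG7*, *SNHG8*, *SNHG12*, *SNHG15*, *SNHG16*, *GAS5* and *ZFAS1*, and a gene was taken where the platform annotation gives a probe set its symbol and no other. This left 1 gene of the 33616 that have such a probe set. For each of the other 9 genes, the table holds 1 probe set with the symbol, and that probe set also lists snoRNAs, so that its signal belongs to no single gene and no value is given for *SNHG1*, *SNHG5*, *SNHG6*, *SNHG7*, *SNHG8*, *SNHG12*, *SNHG15*, *SNHG16* or *GAS5* by name.

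Cells of BCPAP, a cell line from a papillary thyroid carcinoma, were transfected with an siRNA pool against *EPB41L4A* (si*EPB41L4A*) or with a non-targeting pool (si*NS*), both with Lipofectamine RNAiMAX and at a dose that the labels give as 40 uM. After 72 h total RNA was extracted and read on Clariom D Human arrays, 4 for each group, on which a probe set is a group of probes summarized as 1 value. Each group rests on 1 pool in 1 cell line, so that loss of the target and any other action of the same pool cannot be told apart. The labels number the arrays of a group without saying whether they came from separate cultures, so p-values measure only the spread between these samples, which may be technical. The treatment text of all 4 si*NS* samples names *LRRC34* in place of *EPB41L4A*. Whether the arrays of the 2 groups were processed together is not given, and a difference between runs cannot be told apart from the treatment.

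*EPB41L4A* had a log2 value of 6.33 ± 0.70 with si*EPB41L4A* and 9.53 ± 0.26 with si*NS* (SD, n = 4 each), which is -3.20 on the log2 scale (adjusted p = 0.000491, limma), while *LRRC34* did not pass the test (log2 change 0.63, adjusted p = 0.504). Its highest value on any array, 5.67, was below the 95th percentile of the negative controls, 5.97 to 6.43 by array. At such levels the test cannot decide whether *LRRC34* was targeted in the si*NS* samples. Array medians were 3.72 to 3.84. Of 11 measured thyroid markers, 4 (*PAX8*, *NKX2-1*, *FOXE1* and *HHEX*) lay above the 95th percentile of the negative controls on every array, and thyroglobulin (*TG*), *TSHR* and the iodide transporter *SLC5A5* did not. The same held for 4 of 7 epithelial, 3 of 6 fibroblast, 1 of 5 leukocyte and 0 of 6 endothelial markers. Of 6 tested epithelial markers 3 fell, the adhesion protein *EPCAM* (log2 change -2.43, adjusted p = 0.00683), the tight junction protein *CLDN4* (-1.44, adjusted p = 0.00592) and the keratin *KRT7* (-1.42, adjusted p = 0.00645), and 0 rose. Of the tested genes with a symbol of their own, 2.96% were called lower and 2.55% higher. *EPCAM* lay above the 95th percentile of the negative controls on 1 of 4 si*EPB41L4A* arrays and 4 of 4 si*NS* arrays. The summed log2 value of the epithelial markers was 68.25 to 71.78 with si*EPB41L4A* and 74.57 to 77.96 with si*NS*, and that of the leukocyte markers was 26.48 to 28.66 with si*EPB41L4A* and 28.55 to 30.58 with si*NS*. The part of these shifts in the results was not tested. All samples are of 1 cell line, so the marker sums are not read as shares of cell types.

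snoRNA host genes are transcribed by RNA polymerase II into long RNAs whose introns carry small nucleolar RNAs. The snoRNAs are cut out of the spliced introns, bind box C/D or H/ACA proteins, and guide methylation or pseudouridylation of ribosomal RNA. What is left, the spliced exons, has little coding capacity and in several of these genes reaches the ribosome and is removed by nonsense-mediated decay. Many host genes begin transcription at a C followed by a run of pyrimidines, the terminal oligopyrimidine start shared with ribosomal protein genes, whose translation depends on mTORC1 and the RNA-binding protein LARP1.

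In the RefSeq table of GRCh38.p14, *ZFAS1* is a long non-coding RNA gene at chr20:49278178-49289260, and the 3 snoRNAs lie inside it, *SNORD12C* at chr20:49278945-49279023, *SNORD12B* at chr20:49280313-49280415 and *SNORD12* at chr20:49280683-49280772. On the chromosome, the span of its neighbour *ZNFX1*, a protein-coding gene, reaches to 121 bases before that of *ZFAS1*. Whether this is the start or the end of *ZNFX1* was not read here. The first bases of the *ZFAS1* transcript whose start the RefSeq promoter table gives are shown because they carry a terminal oligopyrimidine start. That start base, chr20:49278642, lies inside the gene's span, and the window at chr20:49278632-49278661 on the plus strand holds 10 bases before it and 20 from it onward, with the C and the pyrimidines that follow it in capitals.
ZFAS1: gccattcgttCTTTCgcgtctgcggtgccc
The tract of 5 bases began exactly at the start base. A C followed by 4 pyrimidines (C or T), read on the strand of the gene, began at the start base in 4.07% of 35116 RefSeq starts and lay anywhere in the same window of 30 bases in 38.4% of them. This is a description of the letters and no measure of translation.

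Every si*EPB41L4A* array lay below every si*NS* array in *ZFAS1*, but at a level close to background, and the difference did not pass the test. Its probe set passed the filter on low values, which asks for a value above the array median on at least 4 of 8 arrays. Its log2 values were 4.42, 3.29, 4.72 and 4.75 on the si*EPB41L4A* arrays (replicates 1 to 4) and 4.85, 5.88, 6.47 and 6.44 on the si*NS* arrays. The groups did not overlap, although the highest si*EPB41L4A* array and the lowest si*NS* array lay next to each other at 4.75 and 4.85. Every si*EPB41L4A* array was below every si*NS* array in 4.85% of the 66831 probe sets tested, and the groups did not overlap in either direction in 8.61%. The means were 4.30 ± 0.69 with si*EPB41L4A* and 5.91 ± 0.76 with si*NS* (SD, n = 4 each). The log2 change, si*EPB41L4A* minus si*NS*, was -1.61 (standard error, SE, 0.40, 95% interval -2.49 to -0.74), and 0.657% of tested probe sets had a change as low or lower. limma's moderated test gave an unadjusted p of 0.00172 and an adjusted p of 0.0586, which misses the threshold of 0.05. An exact two-sided permutation test gave p = 0.0286, the smallest that 4 arrays against 4 allow. Thus 0 of 1 gene was called, where 1.38% of all tested probe sets were called lower and 1.23% higher. At an unadjusted p under 0.05 it was 1 of 1, where 8.17% of probe sets were lower. The median log2 change of the tested genes with a symbol of their own was -0.06.

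**Figure D1:**
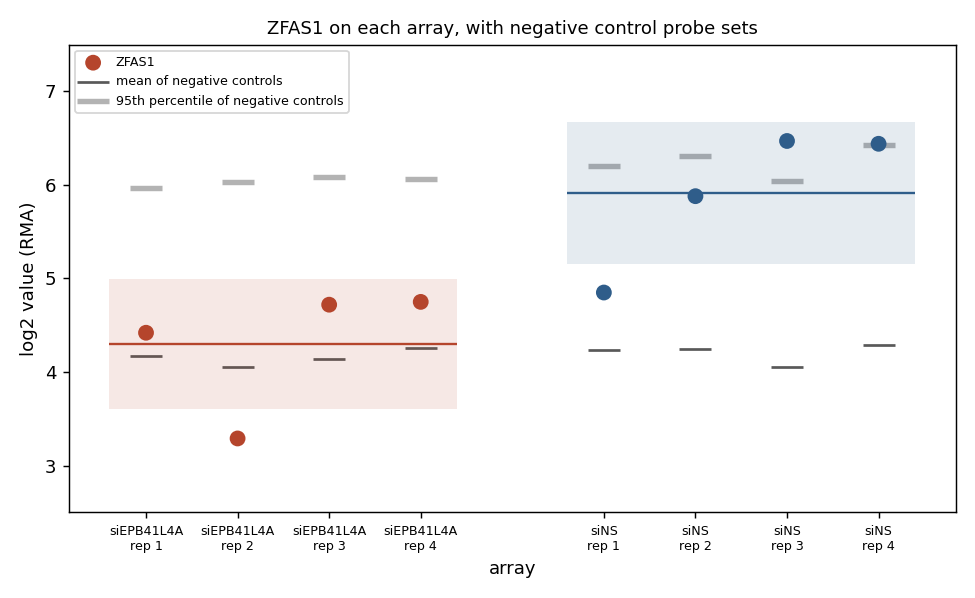
Deposited log2 value of *ZFAS1* on each array (points), for the 4 si*EPB41L4A* arrays and the 4 si*NS* arrays, with each group's mean (line) and SD (band). Short dark and light bars mark the mean and the 95th percentile of the 612 negative control probe sets on the same array. *ZFAS1* lay above the light bar on 0 of 4 si*EPB41L4A* arrays and on 2 of 4 si*NS* arrays.

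Most of these values lay within the range of the negative controls. By array, the mean of the 612 negative controls was 4.05 to 4.29 and their 95th percentile 5.97 to 6.43. *ZFAS1* was above the 95th percentile on 0 of 4 si*EPB41L4A* arrays and on 2 of 4 si*NS* arrays, replicates 3 and 4. It exceeded 64.7%, 26.3%, 72.2% and 69.8% of the negative controls on the si*EPB41L4A* arrays, and 73.7%, 91.2%, 96.7% and 95.4% on the si*NS* arrays. The si*NS* mean of 5.91 was itself below the 95th percentile on every array. With si*EPB41L4A* replicate 2 *ZFAS1* was 0.76 below the mean of those controls. Over the 8 arrays its mean of 5.10 was higher than that of 80.7% of all probe sets and of 40.3% of the tested genes with a symbol of their own. The sources used here do not say which part of *ZFAS1* the probe set covers.

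A further probe set lists *ZFAS1* beside 3 snoRNAs, at a far higher level. Its log2 values were 13.91, 12.91, 13.20 and 12.73 on the si*EPB41L4A* arrays and 13.70, 13.35, 13.99 and 13.45 on the si*NS* arrays, far above the negative controls in both groups. The groups overlapped, the si*EPB41L4A* array of replicate 1 being higher than 3 of the 4 si*NS* arrays. Its log2 change was -0.43 (SE 0.28, 95% interval -1.04 to 0.17, adjusted p = 0.558, limma). Both probe sets were thus lower in the mean with si*EPB41L4A*. Whether their changes differ was not tested, and how much of the signal of the second comes from the host and how much from the snoRNAs cannot be told apart.

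The call of *ZFAS1* turned on the setting, while the sign of its change did not. Without si*NS* replicate 1, its lowest si*NS* array, it passed (log2 change -1.97, adjusted p = 0.0243, limma). Without si*EPB41L4A* replicate 2, its lowest array of all, the log2 change was -1.28 (adjusted p = 0.149). Over all 20 alternatives the log2 change was -2.01 to -1.28 and the adjusted p 0.0209 to 0.281, with 5 under 0.05.

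**Figure D2:**
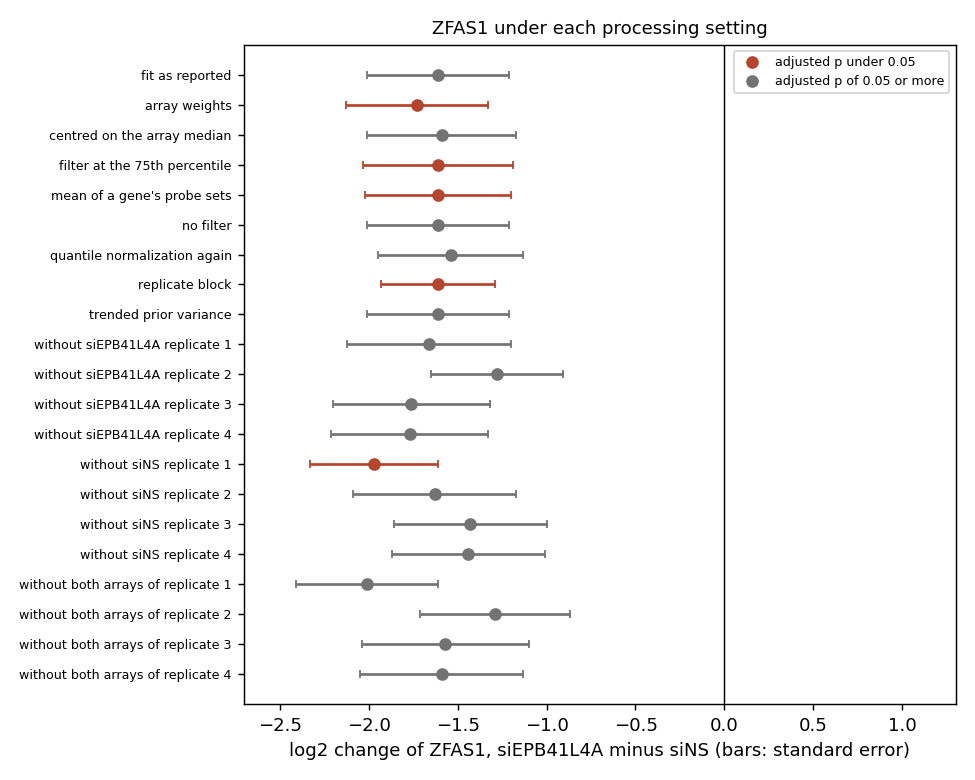
Log2 change of *ZFAS1*, si*EPB41L4A* minus si*NS*, in the fit as reported and under each of 20 alternatives, with bars for the standard error. All changes lie below 0, between -2.01 and -1.28, and coloured points mark the 5 alternatives with an adjusted p under 0.05.

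None of the 10 probe sets that list one of the host genes together with snoRNAs passed the test. All their other symbols, 1 to 9 on a probe set, are snoRNAs. Their mean levels ran from 3.87 to 15.47, and 6 had a mean of 12 or more. Of the 10, 8 were lower in the mean and 2 higher, with log2 changes of -1.20 to 0.53. Their median was -0.28, where that of all tested probe sets was -0.05. By limma 0 of 10 were called, where 2.61% of all tested probe sets were called in either direction. At an unadjusted p under 0.05 it was 2 of 10, where 13.9% of all tested probe sets passed. The lowest adjusted p was 0.0901, for probe set TC0400008537.hg.1. Its log2 values were 12.66, 11.60, 11.83 and 11.46 with si*EPB41L4A* and 12.77, 13.03, 12.68 and 12.94 with si*NS*. It was the only one of the 10 whose groups did not overlap, where 8.61% of all tested probe sets did not. The gap was far smaller than the spread of the si*EPB41L4A* arrays, and the log2 change was -0.97 (SE 0.27). TC0100013481.hg.1 had the most negative change (-1.20, SE 0.38, adjusted p = 0.134), and its groups overlapped. TC1700008954.hg.1 had the most positive one (0.53, SE 0.32, adjusted p = 0.532). The intervals of 8 of the 10 included 0.

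**Figure D3:**
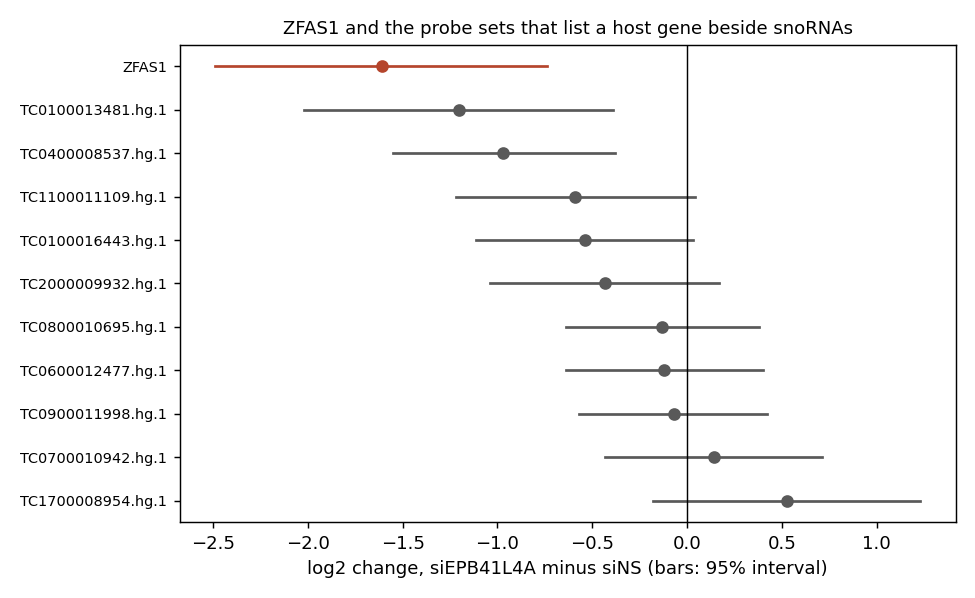
Log2 change, si*EPB41L4A* minus si*NS*, with its 95% interval, for *ZFAS1* (top) and for the 10 probe sets that list a host gene beside snoRNAs, by probe set identifier. Of the 10, 2 have intervals that lie below 0, and neither passed an adjusted p of 0.05.

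Of the 35 snoRNAs lodged in the 10 host genes, 4 had a probe set with their symbol alone on the chromosome of the gene. The probe set of *SNORD81*, the symbol of a box C/D snoRNA of *GAS5*, was lower. Its log2 values were 6.09, 5.27, 5.48 and 5.44 with si*EPB41L4A* and 6.24, 7.0, 7.31 and 7.51 with si*NS*. The groups did not overlap, and the log2 change was -1.44 (SE 0.30, adjusted p = 0.0242, limma). *SNORD81* was above the 95th percentile of the negative controls on 1 of 4 si*EPB41L4A* arrays and 4 of 4 si*NS* arrays, so the size of its change rests on values near background. The call was lost when si*EPB41L4A* replicate 2, 3 or 4 was left out (adjusted p = 0.0830, 0.0680 and 0.0553), and likewise for si*NS* replicate 2, 3 or 4 (0.0645, 0.0699 and 0.0564). Averaged over all probe sets with its symbol, *SNORD81* had a log2 change of -0.81 and was not called (adjusted p = 0.0624). *SNORD99*, a box C/D snoRNA of *SNHG12*, lay at 10.83, 9.18, 9.64 and 9.31 with si*EPB41L4A* and at 11.24, 10.93, 11.04 and 10.93 with si*NS*, again without overlap. Groups did not overlap, in either direction, in 8.61% of all tested probe sets. For *SNORD99* the highest si*EPB41L4A* array and the lowest si*NS* arrays lay next to each other at 10.83 and 10.93. Its log2 change was -1.29 (SE 0.33), and its adjusted p of 0.0606 missed the threshold, which it passed without si*EPB41L4A* replicate 1 (adjusted p = 0.00434). *SNORA44* of *SNHG12* (-0.73) and *SNORD1B* of *SNHG16* (0.17) lay below the 95th percentile of the negative controls in both groups. The counts were 1 lower, 0 higher and 3 not passed, with a median log2 change of -1.01. Of the tested genes with a symbol of their own, 2.96% were called lower, 2.55% higher and 5.51% in either direction, and their median was -0.06. None of the 4 is a snoRNA of *ZFAS1*. Probe sets were matched to a host gene by chromosome only, so copies of a snoRNA elsewhere on a chromosome were not told apart. Whether the *SNORD81* probe set reads the copy in *GAS5* is thus not known, and the same holds for *SNORA44* and *SNHG12*. The identifiers of *SNORD99* (TC0100013482.hg.1) and *SNORD1B* (TC1700008955.hg.1) directly follow those of probe sets that list a host gene (TC0100013481.hg.1 and TC1700008954.hg.1). Those of *SNORD81* (TC0100008913.hg.1) and *SNORA44* (TC0100015800.hg.1) do not. The count and median above are therefore of symbols, and not of snoRNAs shown to lie in the host genes.

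Among other non-coding snoRNA hosts, *SNHG19* fell. Of 21 such genes 4 were measured. *SNHG19* had log2 values of 6.23, 6.07, 6.03 and 5.77 with si*EPB41L4A* and 7.26, 7.31, 6.89 and 7.81 with si*NS*, a log2 change of -1.30 (SE 0.24, adjusted p = 0.0133, limma) that stayed past the threshold in all 8 fits without 1 array. It was lost without both arrays of replicate 1, 2 or 4 (adjusted p = 0.0562, 0.118 and 0.0672). *SNHG19* was above the 95th percentile of the negative controls on 2 of 4 si*EPB41L4A* arrays and 4 of 4 si*NS* arrays. *EPB41L4A-AS1*, host of a snoRNA at the locus of the siRNA's target, lay at 12.89, 12.58, 13.05 and 11.57 with si*EPB41L4A* and at 12.91, 12.83, 13.11 and 12.51 with si*NS* (log2 change -0.32, adjusted p = 0.734). *SNHG28* and *MEG8* lay below the 95th percentile of the negative controls. The count was thus 1 lower, 0 higher and 3 not passed, too few to set against a share. Of the tested genes with a symbol of their own, 2.96% were called lower and 2.55% higher. Of 28 protein-coding snoRNA hosts 8 were measured and 0 were called by limma. At an unadjusted p under 0.05, 2 were lower and 0 higher, where 8.17% of all tested probe sets were lower. The largest differences were in *CHD8*, a chromatin remodeller (log2 change -0.78, adjusted p = 0.0785), and *SF3B3*, a splicing factor subunit (-0.76, adjusted p = 0.190). *CHD8* passed under a stricter filter that kept probe sets above the 75th percentile of an array (adjusted p = 0.0438).

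Among the proteins that carry snoRNAs and those that assemble the particles, none passed the test, where 5.51% of the tested genes with a symbol of their own were called in either direction. Of the box C/D and H/ACA core proteins, 6 of 8 were measured and 0 passed (1 lower and 0 higher at an unadjusted p under 0.05; median log2 change -0.21). *NHP2*, of the H/ACA particle, differed by -0.78 on the log2 scale (adjusted p = 0.285) and *SNU13*, of the C/D particle, by -0.67 (adjusted p = 0.359). All 11 assembly factors were measured and 0 passed (1 lower and 0 higher at an unadjusted p under 0.05), with log2 changes from -0.89 for the helicase *RUVBL2* (adjusted p = 0.0739) to 0.50. *RUVBL2* passed once probe sets were kept only above the 75th percentile of an array (adjusted p = 0.0451) and once the probe sets of each gene were averaged (adjusted p = 0.0362). *PIH1D1*, which works with the RUVBL helicases, had -0.53 (adjusted p = 0.507).

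Among decay factors, protein-coding decay substrates and translation genes with a terminal oligopyrimidine start, only the substrate *NAT9* was called. Of the tested genes with a symbol of their own, 5.51% were called in either direction. Of 21 nonsense-mediated decay factors 17 were measured and 0 passed (at an unadjusted p under 0.05, 2 higher and 4 lower, where 13.9% of all tested probe sets passed in either direction), from the endonuclease *SMG6* (log2 change -1.23, adjusted p = 0.164) and *RNPS1* (-1.08, adjusted p = 0.139) up to a highest log2 change of 1.05. *SMG6* passed without si*EPB41L4A* replicate 1 (adjusted p = 0.00481), and *RNPS1* without si*EPB41L4A* replicate 4 (adjusted p = 0.0394). *XRN1*, an exonuclease named after its values were seen, had that highest change and passed without si*NS* replicate 3 (adjusted p = 0.0395). Of 9 protein-coding substrates of that decay, *NAT9*, an acetyltransferase, was lower (log2 change -1.08, adjusted p = 0.0410), 0 were higher and 8 did not pass. When 1 array was left out, its call was kept without replicate 1 of either group (si*EPB41L4A* 0.0474, si*NS* 0.0478) and was otherwise lost (adjusted p = 0.0748 to 0.111 without si*EPB41L4A* replicate 2, 3 or 4 or si*NS* replicate 2, 3 or 4). Leaving out both arrays of replicate 1, 2, 3 or 4 lost the call each time (adjusted p = 0.0635, 0.168, 0.221 and 0.143, limma). Of 15 translation genes with a terminal oligopyrimidine start, ribosomal proteins aside, 9 were measured and 0 passed (1 lower and 0 higher at an unadjusted p under 0.05), the largest differences being in *EEF1D*, an elongation factor subunit (-0.48), and *EIF3E*, an initiation factor subunit (0.42).

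All 13 regulators of the terminal oligopyrimidine RNAs were measured, and 1 rose, 2 fell and 10 did not pass, where of the tested genes with a symbol of their own 2.55% were called higher and 2.96% lower. *MTOR*, the kinase of mTORC1, had log2 values of 7.84, 8.17, 7.67 and 8.13 with si*EPB41L4A* and 9.86, 9.20, 9.21 and 8.92 with si*NS* (log2 change -1.34, SE 0.25, adjusted p = 0.0134, limma). *EIF4EBP2*, a repressor of cap-dependent translation that mTORC1 inactivates, had 15.37, 15.44, 14.41 and 16.16 with si*EPB41L4A* and 12.97, 13.55, 13.04 and 13.99 with si*NS* (log2 change 1.96, SE 0.35, adjusted p = 0.0128). Neither gene's groups overlapped, where 8.61% of all tested probe sets did not, and both kept their calls in all 8 fits without 1 array. Without both arrays of a replicate the call of *MTOR* was lost for replicate 1, 2 or 3 (adjusted p = 0.0725, 0.0897 and 0.0965), and that of *EIF4EBP2* for replicate 1 or 2 (adjusted p = 0.0927 and 0.114). *MLST8*, a further mTORC1 subunit, fell by 1.27 on the log2 scale (adjusted p = 0.0251). That call was lost without si*EPB41L4A* replicate 1, 2 or 3 (adjusted p = 0.0584, 0.0826 and 0.0675) as well as without the si*NS* array of replicate 3 (adjusted p = 0.0723) or 4 (adjusted p = 0.0579). Leaving out both arrays of replicate 1, 2 or 3 also lost it (adjusted p = 0.088, 0.117 and 0.167, limma), and of replicate 4 kept it (0.0449).

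The 5 genes whose values over the 8 arrays were most like those of *ZFAS1* were *OGFOD3*, *ABHD14A*, *MIGA2*, *VPS16* and *KSR1P1*, out of 22348 genes set beside it. Pearson's r was 0.981, 0.979, 0.977, 0.975 and 0.972, and Spearman's rho 0.905, 1.0, 0.952, 0.833 and 1.0 (n = 8 arrays). They were picked as the highest of many values, so no p is given, and 132 genes reached an r of 0.9. Without the 2 arrays on which *ZFAS1* was farthest from its median, si*NS* replicates 3 and 4, r was 0.935 to 0.985, and on deviations from the group means it was 0.929 to 0.953. All 8 values of a gene share the arrays and their normalization. Most of these genes, like *ZFAS1*, lay near background: *MIGA2* and *KSR1P1* were above the 95th percentile of the negative controls on 0 of 8 arrays, and *ABHD14A* and *VPS16* on 0 of 4 si*EPB41L4A* arrays and 3 of 4 si*NS* arrays. *OGFOD3* was above it on all 8. *ABHD14A* passed the test (log2 change -1.36, adjusted p = 0.0480, limma), with means of 5.10 ± 0.56 with si*EPB41L4A* and 6.46 ± 0.52 with si*NS* (SD, n = 4 each). The other 4 did not pass (adjusted p = 0.157 to 0.467). At the *ZFAS1* locus, *ZNFX1*, a neighbour named after its values were seen, had a log2 value of 10.11 ± 0.74 with si*EPB41L4A* and 10.89 ± 0.82 with si*NS* (SD, n = 4 each), and its difference of -0.78 did not pass (adjusted p = 0.470).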

How the data were processed

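Total RNA of 8 BCPAP samples was hybridized to Clariom D Human arrays. The authors summarized the signals by RMA, the robust multiarray average, using Affymetrix Expression Console, and the deposited values are log2, 1 per probe set and array, which were used without further normalization. Neither a software version nor a build is given in the sources used here. Of 135750 probe sets besides 2995 control rows, 66831 exceeded the array median on 4 or more of the 8 arrays and were tested by lmFit and eBayes (limma 3.58.1, R 4.3.3). The contrast was si*EPB41L4A* minus si*NS* without a block, and p-values were adjusted over all these probe sets (Benjamini-Hochberg). Single genes also had exact permutation tests over the 70 ways to choose 4 of 8 arrays. The fit was also run on simulated arrays with independent values, a check of the code that says nothing of spread shared between arrays.

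Platform annotation gives 36176 probe sets 1 symbol and 1119 several, and no gene was named from the latter. A gene is its probe set of highest mean. Named genes are the members, the called genes of each list or the 2 largest differences where none was called, checks of the labels, and the 5 genes most like *ZFAS1*. The members and lists were chosen with earlier results of these data known. Alternatives were other filters, a block, other normalizations, a trended variance, array weights, averaging the probe sets of each gene, and leaving out arrays. The precision is limited by the number of arrays.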

Additional observations from a re-analysis of the deposited data

Results flagged for a closer look

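*ZNFX1*, the neighbour of *ZFAS1*, had 1 si*EPB41L4A* array far from the other 3: replicate 3 lay at 11.21, the others at 9.62 to 9.84. Of the 44 groups of 4 arrays examined in this way 1 stood out, where chance gives about 5% of groups. The si*NS* array of the same number was also the highest of its group, at 12.07. The si*EPB41L4A* array lowest in *ZFAS1*, replicate 2 at 3.29, did not stand out by this measure.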

How the results depend on the processing

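*ZFAS1* kept a negative change in all 20 alternatives. It was called with array weights (log2 change -1.73, adjusted p = 0.0395), with a filter set at the array's 75th percentile (-1.61, adjusted p = 0.0448), with each gene's probe sets averaged, which adjusts over fewer values (-1.61, adjusted p = 0.0349), and with the replicate block (-1.61, adjusted p = 0.0209), each of which makes 1 called gene of 1. Without both arrays of replicate 1 to 4 the change was -2.01, -1.29, -1.57 and -1.59 (adjusted p = 0.0511, 0.281, 0.193 and 0.135). Without 1 array the change was -1.97 to -1.28 and the number called 0 to 1. The deviations of same-numbered arrays from their group means correlated at 0.228, 0.0746, 0.201 and 0.385. All are positive, but since 1 is under 0.1 the numbers were not taken to mark pairs. That cut does not settle whether the arrays are paired, and with the replicate block *ZFAS1* passed. Of the snoRNAs, 1 was called lower, against 2 with array weights, with the filter at the 75th percentile, with the replicate block and without both arrays of replicate 1, and 0 without both arrays of replicate 2, 3 or 4 (0 to 2 without 1 array). Over the other lists 4 genes were called lower and 1 higher. The number higher was 2 with each gene's probe sets averaged, 3 with the replicate block and 0 without both arrays of replicate 1 or 2 (1 to 2 without 1 array). The number lower was 6 with the filter at the 75th percentile, with each gene's probe sets averaged and with the replicate block, 1 without both arrays of replicate 1 or 3 and 0 without those of replicate 2 (2 to 4 without 1 array). The replicate block added *RUVBL2* (adjusted p = 0.0370), *RNPS1* (0.0141), *XRN1* (0.0235), *RPS6KB1* (0.0331) and *SNORD99* (0.0220), some of them named after their values were seen. *NAT9* was lost with no filter (0.0544) and with a trended variance (0.0518), and *KRT7* with each gene's probe sets averaged (0.0976). The causes were not tested. Signal over background limits *ZFAS1*, since 6 of its 8 values lie below the 95th percentile of the negative controls.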
